A study of Pinus pinaster with 14 samples.

Results

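Young needle vascular transcripts were those that stood out in the vascular tissue of young needles of maritime pine (Pinus pinaster, a Mediterranean conifer) once a single other library, hypocotyl vascular tissue, was set aside. A transcript was a member when its normalised read count in young needle vascular tissue was at least 77, about 100 reads, and when that value plus 5 was at least 4 times the highest of the other 12 libraries plus 5. The rule was met by 201 of the 23493 transcripts in the table, or 8.85% of the 2272 that reached 77. Because these values chose the members, they are described here and not tested. The hypocotyl vascular values did not enter the rule, but that library was set aside with earlier results of these data known. With it kept, 10 transcripts met the rule, so its values are not independent of the choice.

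The libraries came from seedlings of the Oria provenance, grown in soil in a growth room and harvested 1 month after the shoots emerged. Laser microdissection, which cuts chosen cells from frozen sections under a microscope, gave young needle vascular tissue and 13 other tissues. These were hypocotyl, cotyledon, root and developing root vascular tissue; young needle and cotyledon mesophyll; hypocotyl, root and developing root cortex; hypocotyl pith; emerging needles; and the apical and root meristems. The cDNA was amplified and pyrosequenced as 1 library a tissue, so no tissue had a replicate. Which seedlings went into which library is unknown. The labels name no genotype, transgene or treatment that separates the libraries.

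The vascular cylinder of a pine needle holds xylem, which carries water into the leaf, and phloem, which carries sugars out, both surrounded by transfusion tissue and an endodermis that separate them from the photosynthetic mesophyll. In a young needle this tissue is still differentiating. The hypocotyl, the stem below the cotyledons, has a vascular system continuous with that of the leaves. The table analysed here pairs no gene name or sequence with an identifier, so no function is given to any member, and neither the tissue label nor any cell type could be checked against marker genes.

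Young needle and hypocotyl vascular tissue shared nearly all of their stronger transcripts. Of the 2293 transcripts with at least 100 reads in young needle vascular tissue, 0 lacked reads in hypocotyl vascular tissue. By contrast, 662 of them (28.9%) had no read in cotyledon vascular tissue and 823 (35.9%) had none in young needle mesophyll, the neighbouring tissue of the same organ. The same count was 0 in 4 of the 182 ordered pairs of libraries. The others were hypocotyl pith for cotyledon mesophyll (0 of 1775), and the apical meristem for hypocotyl cortex (0 of 475) and for root cortex (0 of 473). In the reverse direction of the vascular pair, 11 of 1102 transcripts with at least 100 reads in hypocotyl vascular tissue (0.998%) had no read in young needle vascular tissue. Expression in both tissues and reads or RNA common to both libraries cannot be told apart with 1 library of each, and every result on hypocotyl vascular tissue below rests on this pair. In these bulk samples, fewer cells of a type and less RNA per cell cannot be told apart either.

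The members were of moderate abundance. Their values in young needle vascular tissue ran from 77.4 to 421, with a median of 108, while the most abundant transcript of that library stood at 5405. The best placed member ranked 152 in the library, and 13 members were among its 500 most abundant transcripts. A value of 200 or more was reached by 19 members, and 79 were under 100. They had 101 to 549 reads each, with a median of 141.

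Together the members held 3.90% of young needle vascular reads (95% Wilson interval 3.86 to 3.94%) and 1.00% of hypocotyl vascular reads (0.981 to 1.03%). The next highest share was 0.139% in emerging needles (0.131 to 0.147%), followed by 0.0895% in developing root vascular tissue (0.0827 to 0.0969%). The lowest was 0.0161% in root vascular tissue (0.0142 to 0.0182%). Young needle mesophyll, cut from the same organ, had 0.0223% (0.0193 to 0.0258%). These intervals cover counting error only, since amplified cDNA reads are not independent molecules.

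**Figure D1:**
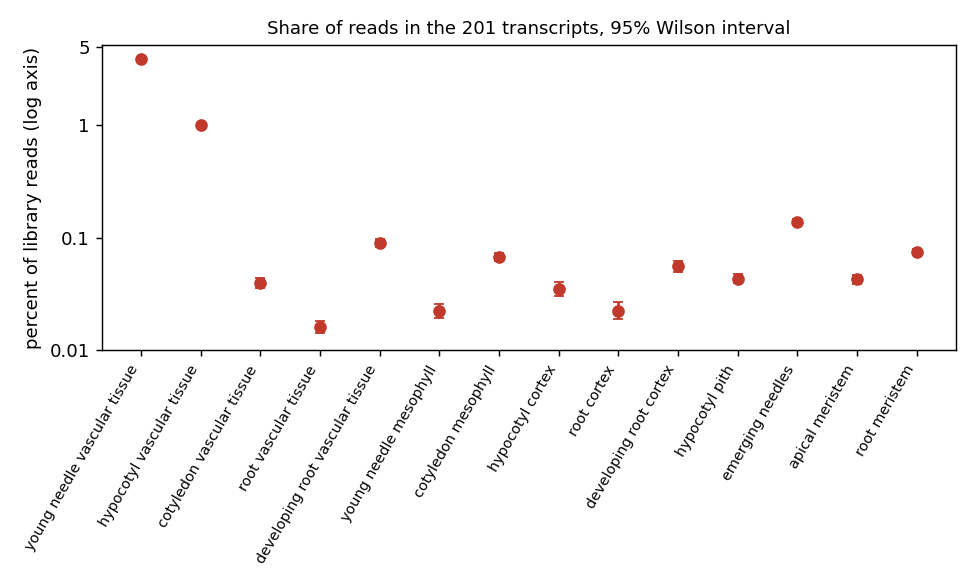
Percent of each library's reads that fell in the 201 transcripts, on a log axis, with 95% Wilson intervals (counting error only). Young needle vascular tissue, at 3.90%, and hypocotyl vascular tissue, at 1.00%, lie above the other 12 libraries, which range up to 0.139%.

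Hypocotyl vascular tissue had reads for all 201 members, 10 to 125 each with a median of 32. For each member it was the highest of the other 13 libraries, as it was for 18.3% of all transcripts at 77 or more in young needle vascular tissue. Since the rule limited the other 12 libraries and not hypocotyl vascular tissue, nothing is read from that difference. The hypocotyl vascular values ran from 11.2 to 140, with a median of 35.7.

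The ratio of hypocotyl to young needle vascular value stayed within a narrow range across members. Its median was 0.314, with 0.276 and 0.371 as the 25th and 75th percentiles and extremes of 0.129 and 0.718. The summed hypocotyl value was 0.329 of the summed young needle value. A ratio between 0.25 and 0.5 was found for 167 members (83.1%), against 43.6% of all 2272 transcripts at 77 or more and 39.8% of the 2071 that were not members. This count depends on the scaling between libraries: with reads scaled by library totals 94 members (46.8%) were in this range, against 45.8% of all 2272, and with DESeq2 size factors 83 (41.3%), against 44.8%. At the deposited scaling no member was higher in hypocotyl than in young needle vascular tissue, whereas 485 of the other transcripts (23.4%) were. Members and other transcripts alike reached 77 in young needle vascular tissue, the divisor of this ratio. Members were set apart by the limit on the other 12 libraries relative to that divisor, so the groups were not chosen alike. These differences between members and other transcripts are therefore not read as a result.

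Most of the ratio's spread was of the size that read counts alone would give. The log2 ratio had an SD of 0.36 among the 201 members, where counting error alone gives 0.29. Among the 2071 other transcripts the SD was 1.06, where counting error gives 0.21. The rule limited the other 12 libraries for members only, so this difference too is not read as a result. Across the 201 members, values in the 2 vascular libraries followed each other (Pearson r = 0.828 on the log2 scale, Spearman rho = 0.800), while Spearman rho between young needle vascular tissue and any other library ran from 0.163 in young needle mesophyll to 0.349 in developing root vascular tissue. The rule limited the other 12 libraries, where most members had few or no reads, so the low values there are set by the choice of members and are not a contrast with the vascular pair. These correlations are across transcripts that share libraries and depth.

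**Figure D2:**
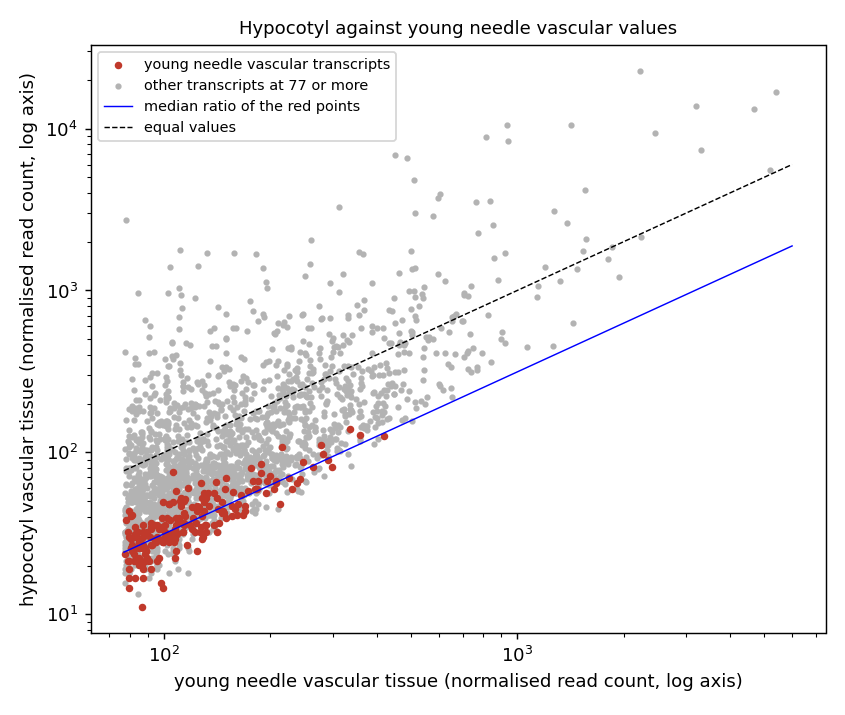
Normalised read count in young needle vascular tissue (x) and hypocotyl vascular tissue (y), both on log axes, for the 2272 transcripts at 77 or more in young needle vascular tissue. The 201 members, in red, lie along the line of their median ratio, 0.314, at the lower edge of the cloud, and 485 of the other transcripts lie above the line of equal values. The rule limited the other 12 libraries, relative to the young needle vascular value, for members only, so the groups are not compared.

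The ratio was nearly the same at each level of abundance. In the 67 members with the highest young needle vascular values the median ratio was 0.315, in the next 67 it was 0.323 and in the lowest 67 it was 0.308. Below the limit of 77, where the transcripts are not members, 182 met the same 4-fold rule at 40 to 77 and 179 at 20 to 40. Their median ratios were 0.326 and 0.336, and each of them had reads in hypocotyl vascular tissue. At the limit of 77 itself, the 2 members just above it had 77.4 and 78.2 in young needle vascular tissue (23.4 and 38.0 in hypocotyl vascular tissue), and the 2 transcripts just below it both had 76.6 (27.9 and 30.1).

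The ratio also changed little with where else a member was found. In the 16 members with no read in any of the other 12 libraries the median was 0.294. It was 0.307 in the 97 members whose highest other value was above 0 and under 10, and 0.326 in the 88 that reached 10 in another library. Members with reads in hypocotyl cortex or pith, the tissues beside the hypocotyl vascular cylinder, had a median of 0.323 (n = 122), and those with none in either had 0.301 (n = 79). The largest gap of this kind was for cotyledon vascular tissue, with a median of 0.357 in the 23 members with reads there and 0.308 in the 178 without. Though small, these gaps had the same direction in each of the 12 libraries except the apical meristem. There the median was 0.312 in members with reads and 0.315 in those without. This direction was not tested.

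Among transcripts at 77 or more, the ratio was higher and wider where other libraries were higher. Those whose highest value in the other 12 libraries was under 0.1 of the young needle vascular value, all of them members, had a 5th percentile of 0.207 and a median ratio of 0.308 (n = 125). The bins from 0.25 upward hold no members. At 0.25 to 0.5 the 5th percentile was 0.241 and the median 0.383 (n = 191). Where the highest other value was 0.5 to 1 times the young needle vascular value, the 5th percentile was 0.25 and the median 0.388 (n = 310). At 2 times or more, the 5th percentile was 0.323, the median 0.802 and the 95th percentile 4.02 (n = 1071). The 95th percentile thus moved more between bins than the 5th. The 5th percentile was 0.217 over the members and 0.281 over all 2071 other transcripts. Both axes of this comparison have the young needle vascular value as a divisor, so they are not independent. A ratio under 0.2 was found in 14 of the 2272 transcripts, 6 of them members.

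**Figure D3:**
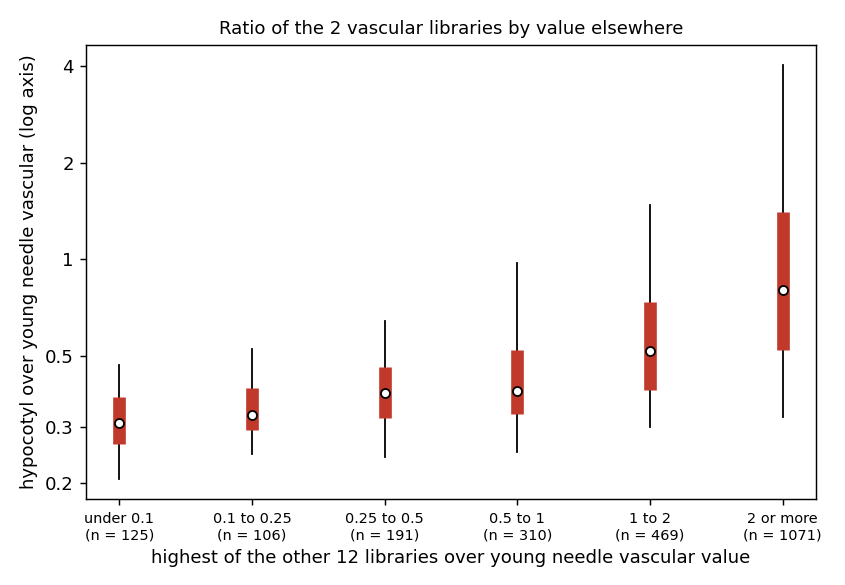
Ratio of hypocotyl to young needle vascular value (log axis) for the 2272 transcripts at 77 or more, binned by their highest value in the other 12 libraries over the young needle vascular value. White points are medians, red bars the 25th to 75th and lines the 5th to 95th percentiles. The median is 0.308 in the lowest bin and 0.802 in the highest, while the 5th percentile is 0.207 and 0.323.

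Individual members are described next, starting with the most abundant. unigene16700 had the highest value, 421 in young needle vascular tissue and 126 in hypocotyl vascular tissue. It stood at 65.6 in cotyledon mesophyll, 31.6 in cotyledon vascular tissue, 26.4 in young needle mesophyll, 24.0 in hypocotyl pith, 19.8 in emerging needles and 3.99 in the apical meristem. Hypocotyl cortex and the 5 root libraries had no read of it, so the libraries with reads were all from the shoot.

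unigene20626 was next, with 359 in young needle vascular tissue and 128 in hypocotyl vascular tissue. It had 50.0 in hypocotyl pith, 45.4 in cotyledon mesophyll, 19.7 in developing root vascular tissue, 19.3 in cotyledon vascular tissue, 15.0 in the hypocotyl cortex and 13.7 in the root meristem. Values were 8.50 in root vascular tissue, 7.81 in developing root cortex, 6.65 in the apical meristem and 2.13 in emerging needles, and there was no read in young needle mesophyll or root cortex. Unlike unigene16700, it was found in both root and shoot.

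The member with the largest gap to the other 12 libraries was isotig48224, with 146 in young needle vascular tissue (191 reads) and 42.4 in hypocotyl vascular tissue (38 reads) and no read elsewhere. With 3 reads as the limit for a library with none, young needle vascular tissue was at least 33.2-fold higher than young needle mesophyll and at least 13-fold higher than hypocotyl cortex, the library in which 1 read is worth most. isotig49236 had 188 in young needle vascular tissue and 74.8 in hypocotyl vascular tissue, with 1 read in young needle mesophyll (1.47) and none in the other 11 libraries. Both transcripts were therefore seen almost entirely in this pair of libraries.

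At the upper end of the ratio, isotig29578 had 106 in young needle vascular tissue and 75.9 in hypocotyl vascular tissue, a ratio of 0.718 (exact 95% binomial interval 0.529 to 0.966, counting error only). It also had 20.2 in cotyledon mesophyll, 13.5 in emerging needles, 10.3 in young needle mesophyll, 3.85 in hypocotyl pith, 2.66 in the apical meristem and 1.96 in the root meristem, with no read in the other 6 libraries. isotig43945 was next, with 79.7 in young needle vascular tissue and 43.5 in hypocotyl vascular tissue, a ratio of 0.546 (0.368 to 0.796). Beyond this pair it had 7.52 in hypocotyl cortex, from 2 reads, 5.32 in the apical meristem and 1.30 in the root meristem, and no read elsewhere. As the extremes of 201 members, these intervals are not set against the median.

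At the lower end, unigene31408 had 86.6 in young needle vascular tissue and 11.2 in hypocotyl vascular tissue, from 10 reads, a ratio of 0.129 (exact 95% binomial interval 0.0602 to 0.246). It had 4.25 in root vascular tissue, 2.96 in root cortex, 2.52 in cotyledon mesophyll, 1.47 in young needle mesophyll, 0.962 in hypocotyl pith and 0.709 in emerging needles, each from 1 to 3 reads. isotig44135 had 99.6 in young needle vascular tissue and 14.5 in hypocotyl vascular tissue, from 13 reads, a ratio of 0.146 (0.0755 to 0.258). It had 2.07 in developing root vascular tissue, 1.42 in root vascular tissue and in emerging needles and 1.33 in the apical meristem. These too were chosen as extremes.

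These were also the members with the largest gap when hypocotyl vascular tissue was kept among the compared libraries. At the deposited scaling only 10 of the 201 met the 4-fold rule then, at ratios of 0.129 to 0.225, and 191 did not. The median ratio of the members was 0.314 as deposited, 0.246 with reads scaled by library totals and 0.238 with DESeq2 size factors. More than 10 of the members are therefore likely to meet the rule at those scalings, where this count was not made. Setting aside any of the other 12 libraries in place of hypocotyl vascular tissue gave 10 or 11 transcripts.

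The same count was made for every library, with 100 reads in place of 77 as the lowest value, which made 204 young needle vascular transcripts. At the deposited scaling, the young needle vascular number was 204 with hypocotyl vascular tissue left out and 10 with none left out, a 20.4-fold change. The change was not computed at the other scalings, where the ratios of the members are lower and the change is likely to be smaller. Of the 182 ordered pairs of libraries, 4 at least doubled the count. The other large change was in cotyledon mesophyll, with 104 transcripts when hypocotyl pith was left out and 12 when none was. Hypocotyl vascular tissue had 38 when cotyledon vascular tissue was out and 16 when none was, and the root meristem had 24 when developing root cortex was out and 12 when none was.

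The spread of the ratio in these pairs depends on which transcripts the rule lets in. The SD of the log2 ratio was 0.36 for hypocotyl over young needle vascular tissue (204 transcripts) and 0.54 for hypocotyl pith over cotyledon mesophyll (104 transcripts, median ratio 0.294), where counting error alone gives 0.29 and 0.24. It was 1.68 for cotyledon over hypocotyl vascular tissue, over the 33 transcripts with reads in both, and 2.95 for developing root cortex over the root meristem. Counting error alone gives 0.30 and 0.61 there. Transcripts that met the rule with none left out have low ratios by that rule. They were 10 of 204, 12 of 104, 16 of 38 and 12 of 24 in these pairs in turn. The SDs are therefore not read as a difference between the pairs. In the opposite direction, leaving young needle vascular tissue out of the hypocotyl vascular comparison gave 19 transcripts, against 16 with none left out. These numbers describe single libraries and were not tested.

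**Figure D4:**
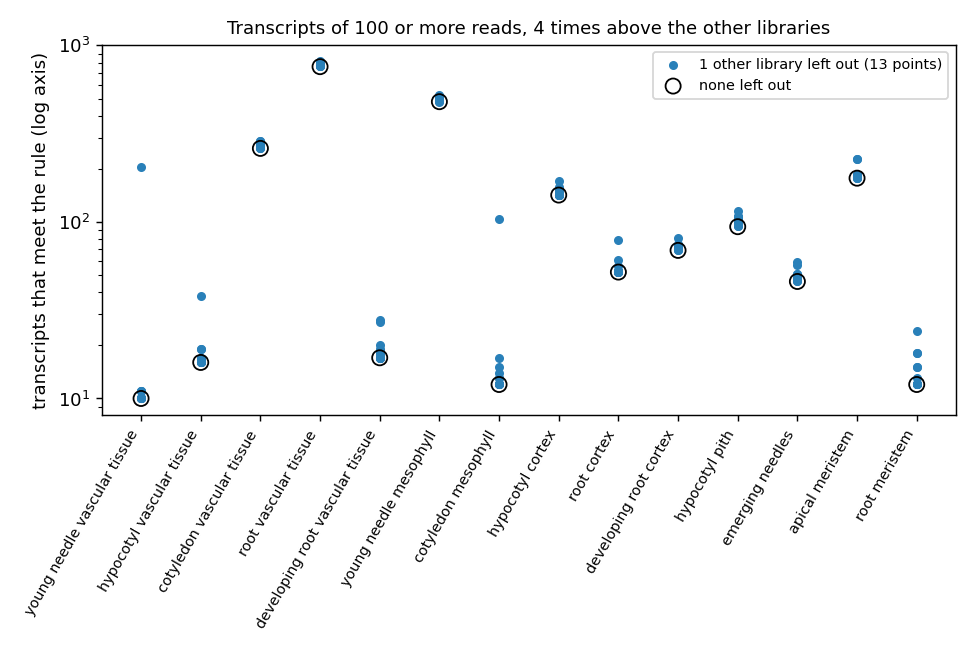
Number of transcripts (log axis) with at least 100 reads in a library and at least 4 times above the others, with none left out (open circles) or 1 of the other 13 libraries left out (blue points). Counts are at the deposited scaling only. For young needle vascular tissue the point for hypocotyl vascular tissue is at 204 and the open circle at 10; for cotyledon mesophyll the point for hypocotyl pith is at 104 and the open circle at 12.

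Outside the pair, members were low and patchy. The median member had reads in 4 of the other 12 libraries, 87 had reads in 3 or fewer, 18 in 9 or more and none in all 12. The highest value among these 12 libraries was under 10 for 113 members, and its median over all members was 7.81. The rule set an upper limit on these values, so their low level is not a finding.

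The libraries differed in how many members they showed. Reads were present for 116 members in the apical meristem (57.7%), 99 in emerging needles, 97 in the root meristem, 95 in hypocotyl pith and 88 in developing root vascular tissue. They were present for 23 in cotyledon vascular tissue (11.4%), 33 in young needle mesophyll and 42 in cotyledon mesophyll. All 2293 transcripts with at least 100 reads in young needle vascular tissue gave a similar order. Of these, 8.24% had no read in the apical meristem and 8.72% none in emerging needles. The share was 22.8% in cotyledon mesophyll, 28.9% in cotyledon vascular tissue and 35.9% in young needle mesophyll. The order is therefore not read as particular to the members. The value of 1 read differs between libraries, from 0.652 (root meristem) to 3.76 (hypocotyl cortex), and depth ran from 519134 to 1536389 reads, so these counts are not on an equal footing. In summed values emerging needles were highest at 811, or 3.19% of the 25439 in young needle vascular tissue. Hypocotyl cortex followed at 688, developing root vascular tissue at 635 and the apical meristem at 597, and the lowest were young needle mesophyll at 266 and cotyledon vascular tissue at 293. Beyond emerging needles this order depends on the scaling: by share of reads hypocotyl cortex, at 0.0353%, was below the root meristem, at 0.0749%.

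**Figure D5:**
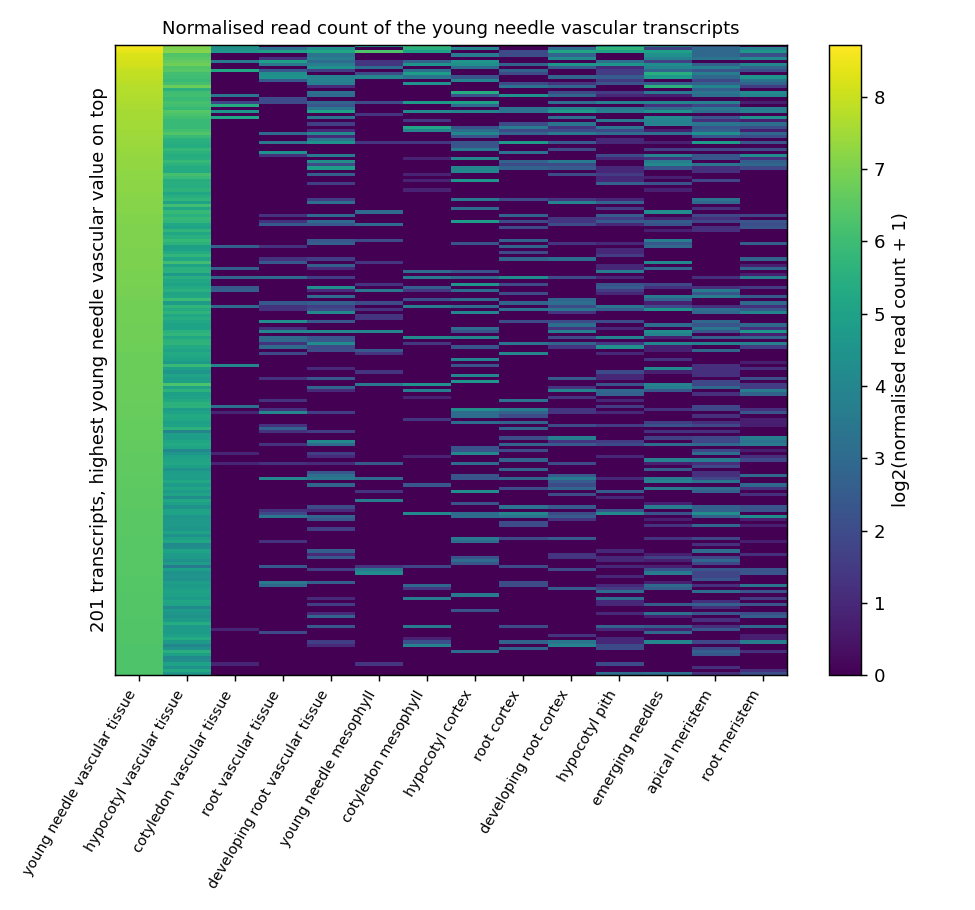
Normalised read count, as log2(value + 1), of the 201 transcripts (rows, highest young needle vascular value on top) in the 14 libraries (columns). The first 2 columns, young needle and hypocotyl vascular tissue, are filled in every row; in the other 12 the number of members with reads runs from 23 in cotyledon vascular tissue to 116 in the apical meristem.

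Emerging needles, the earlier stage of the same organ, had the highest member values of 48.2 for isotig26100 and 43.9 for isotig22698. isotig26100 had 216 in young needle vascular tissue and 107 in hypocotyl vascular tissue, then 48.2 in emerging needles, 14.6 in the apical meristem, 8.88 in root cortex, 6.24 in developing root cortex, 1.96 in the root meristem and 1.04 in developing root vascular tissue. It had no read in either cotyledon library or in young needle mesophyll. isotig22698 had 243 in young needle vascular tissue and 68.1 in hypocotyl vascular tissue, with 43.9 in emerging needles, 27.8 in cotyledon mesophyll, 18.4 in root vascular tissue, 12 in the apical meristem, 2.96 in root cortex, 2.94 in young needle mesophyll and 1.92 in pith, and no read in the other 5 libraries. In both, the young needle vascular value was over 4 times that of emerging needles, as the rule asks.

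In the apical meristem, isotig43242 was highest. It had 169 in young needle vascular tissue and 43.5 in hypocotyl vascular tissue, against 26.6 in both the apical meristem and root cortex, 20.7 in developing root vascular tissue and 9.91 in root vascular tissue. Its remaining values were 4.68 or lower, and cotyledon vascular tissue was the only library without a read. unigene12320 had 176 in young needle vascular tissue and 80.4 in hypocotyl vascular tissue, against 19.9 in the apical meristem, 16.6 in developing root vascular tissue, 15.0 in hypocotyl cortex and 10.9 in developing root cortex. It had 8.50 in emerging needles, 7.69 in pith, 7.08 in root vascular tissue, 6.52 in the root meristem and 5.92 in root cortex. Both were spread thinly over root and shoot libraries.

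Cotyledon vascular tissue, the vascular library of the other leaf type, was without reads for 178 members. It also lacked reads for 28.9% of all 2293 transcripts with at least 100 reads in young needle vascular tissue, and the rule limited its values. Relative to young needle vascular tissue it was highest for isotig44509, with 196 in young needle vascular tissue, 67 in hypocotyl vascular tissue and 41.2 in cotyledon vascular tissue. That transcript had 7.52 in hypocotyl cortex, 4.14 in developing root vascular tissue, 2.66 in the apical meristem and 1.42 in emerging needles, and no read in the other 7 libraries, the mesophylls included. unigene21314 had 185 in young needle vascular tissue, 67 in hypocotyl vascular tissue and 34.2 in cotyledon vascular tissue, with 21.5 in the root meristem, 17.0 in emerging needles, 9.32 in developing root vascular tissue, 7.81 in developing root cortex and 3.99 in the apical meristem. Without reads for unigene21314 were root vascular tissue, both mesophylls, hypocotyl and root cortex, and hypocotyl pith.

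In the root libraries, unigene11344 was the highest member. It had 336 in young needle vascular tissue and 140 in hypocotyl vascular tissue, then 79.3 in young needle mesophyll, 34.3 in developing root cortex, 34.2 in developing root vascular tissue, 32.7 in pith, 31.2 in root vascular tissue, 30.3 in cotyledon mesophyll, 29.1 in emerging needles, 23.5 in the root meristem, 22.8 in cotyledon vascular tissue, 6.65 in the apical meristem and 2.96 in root cortex. Hypocotyl cortex was the only library without a read. isotig10231 had 188 in young needle vascular tissue and 84.8 in hypocotyl vascular tissue, against 32.1 in developing root vascular tissue, 26.5 in developing root cortex, 22.8 in cotyledon vascular tissue and 22.0 in emerging needles, with 17.7 or less elsewhere. Neither root vascular tissue nor young needle mesophyll had a read for it.

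Near the 4-fold limit, isotig46978 and isotig31588 were just inside, both at 4.01 times the highest of the other 12 libraries with 5 added. isotig46978 had 89.7 in young needle vascular tissue and 18.6 in the apical meristem, its highest other library, and isotig31588 had 112 in young needle vascular tissue and 24.1 in the root meristem. Just outside, isotig43828 was at 3.95 times, with 88.9 in young needle vascular tissue and 18.8 in hypocotyl cortex, from 5 reads. isotig43958 was at 3.93 times, with 116 in young needle vascular tissue and 25.9 in developing root vascular tissue. Their ratios of hypocotyl to young needle vascular value were 0.361 and 0.419 inside, and 0.314 and 0.422 outside, so the pairs on either side of the limit overlapped.

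Whether members leaned to vascular tissue in other organs was asked in cotyledon, root and developing root, where the rule limits both tissues alike. In cotyledons 16 members were higher in vascular tissue and 38 in mesophyll, and the other 147 had reads in neither. In root, 35 were higher in vascular tissue and 48 in cortex, and in developing root 64 were higher in vascular tissue and 41 in cortex. Over the whole table the shares higher in vascular tissue and in ground tissue were 27.7% and 31.8% in cotyledons, 32.7% and 38.0% in root, and 35.7% and 32.2% in developing root. The members thus favoured vascular tissue in 1 of the 3 organs by count, the same organ in which the whole table did.

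A fit of the 3 organs with organ as a term gave no call. Of 7369 transcripts at 10 or more in at least 3 of the 6 libraries, 0 were higher and 0 lower in vascular tissue (limma on log2(value + 5), Benjamini-Hochberg adjusted p under 0.05, lowest adjusted p = 0.618), so percent called was 0 in either direction. At an unadjusted p under 0.05 there were 353, while edgeR called 0 and DESeq2 called 39. Only 6 of the 201 members passed the filter, and 0 of these 6 were at an unadjusted p under 0.05 with limma, edgeR or DESeq2. unigene11344 averaged 29.4 in the vascular and 22.5 in the ground tissue libraries, a log2 fold change of 0.61 ± 1.03 SE. unigene8376, named after its values were seen as the member of the 6 with the lowest fold change, averaged 7.45 in vascular and 17.1 in ground tissue, at -0.89 ± 0.93 SE. The median log2 fold change was 0.36 over the 6 members and -0.03 over all 7369.

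Root and shoot were compared in the 8 vascular and ground tissue libraries other than the 2 of the pair, with tissue group as a term. Of 9122 transcripts tested, 53 (0.581%) were higher and 101 (1.11%) lower in root (limma, Benjamini-Hochberg adjusted p under 0.05). The split turned without root vascular tissue, with 326 higher and 157 lower. It was 14 higher and 29 lower without developing root cortex, and 429 higher and 482 lower with DESeq2. Of the members 10 passed the filter, and 0 were called higher and 0 lower. At an unadjusted p under 0.05 was 1 of the 10 members (10%) and 20.5% of all transcripts. The median log2 fold change was 0.14 over the 10 members and 0.55 over all transcripts tested.

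The member with the lowest p was unigene16700. It had no read in the 4 root libraries of the fit and averaged 30.9 in the 4 shoot libraries, from 0 in hypocotyl cortex to 65.6 in cotyledon mesophyll. The groups overlapped at 0, through hypocotyl cortex. It was lower in root by a log2 fold change of -2.41, with an SE of 0.88 (adjusted p = 0.119 with limma), which did not pass. It met the filter only through the shoot, at 26.4 in young needle mesophyll, 65.6 in cotyledon mesophyll and 31.6 in cotyledon vascular tissue. Its direction was thus set by the filter, and it was picked as the lowest p of 10 members. DESeq2 on the recovered reads called 1 of the 10 members lower in root, against 482 lower and 429 higher of all 9122 transcripts. With edgeR 0 members were called, against 92 lower and 81 higher of all 9122. No result on the members is read from these counts. The p-values of both fits measure the spread between tissues, not between seedlings, and may be too small where libraries share seedlings. In the root against shoot fit organ was not a term, so vascular and ground tissue libraries of the same organ counted as independent. Its p-values may be too small for this reason too.

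The identifiers of members were mostly of 1 kind. Of the 201, 169 started with isotig (84.1%) and 32 with unigene (15.9%). Among all 2272 transcripts at 77 or more, 60.5% started with isotig and 38.4% with unigene, and over the whole table these shares were 68.5% and 30.6%. The median ratio of hypocotyl to young needle vascular value was 0.308 for the isotig members and 0.352 for the unigene members. The labels do not say what separates these identifier series, and this difference was not tested.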

How the data were processed

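Expression was measured in 14 libraries, 1 a tissue. FastQC, BWA and edgeR are named, without versions, in the submitters' processing notes. No source used here names the reference assembly. The signal the authors deposited is a normalised read count: CPM, with each library size first multiplied by a normalisation factor. With a tolerance of 0.001, 100% of values were whole multiples of what 1 read is worth, so whole reads were recovered. Libraries held 519134 to 1536389 reads.

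From these values the rule, ratios and shares were computed with Python 3.11.15, pandas 2.3.3 and scipy 1.17.1. Tests used limma 3.58.1 (R 4.3.3) on log2(value + 5), for transcripts at 10 or more in 3 libraries. The alternatives were edgeR 4.0.16 and DESeq2 1.42.0 on recovered reads. All were run on simulated counts without differences between organs, with large changes planted in more abundant transcripts. That run does not show what the tests could find among the members. Fold changes on the log2(value + 5) scale understate low transcripts.

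Members and lists were chosen with earlier results of these data known. Transcripts named are at most 2 for each measure: highest value, gap to other libraries, highest and lowest ratio, highest in cotyledon vascular tissue, root, emerging needles or apical meristem, and either side of the limit. Gene name lists were void.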

Additional observations from a re-analysis of the deposited data

Results flagged for a closer look

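The values of the named transcripts, the summed value of the members and their share of reads were screened for libraries far from the others among the 5 vascular and the 5 ground tissue libraries, 44 sets in all. Of these, 13 values were marked because their gap to the nearest library exceeded 0.71 of the whole range. Chance alone would mark roughly 1 set in 20, and that rate does not carry over to transcripts chosen for a high value in 1 library.

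Young needle vascular tissue was marked 6 times, as the choice of members favours. These were the share of reads in members (3.90%, with hypocotyl vascular tissue next at 1.00%), isotig22698 (243, next 68.1), isotig43242 (169, next 43.5), isotig48224 (146, next 42.4), isotig44135 (99.6, next 14.5) and unigene31408 (86.6, next 11.2). In each case the next library was hypocotyl vascular tissue. The other 7 marks were in ground tissue. isotig22698 stood at 27.8 in cotyledon mesophyll (next 2.96) and isotig43242 at 26.6 in root cortex (next 4.68). isotig43958, which is not a member, stood at 23.7 in root cortex (next 4.68). The other 4 were the only ground tissue library with reads: developing root cortex for unigene21314 (7.81), hypocotyl cortex for isotig43945 and isotig44509 (7.52 each, from 2 reads) and young needle mesophyll for isotig49236 (1.47, from 1 read).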

How the results depend on the processing

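The number of members, 201, ran from 178 (ratio of 5) to 265 (ratio of 3) when the ratio, the added value or the scaling was changed one at a time. It was 323 with the lowest young needle vascular value at 50 and 41 at 150. It was 10 with hypocotyl vascular tissue kept, and 10 or 11 with any of the other 12 libraries set aside in its place: 11 for young needle mesophyll, developing root vascular tissue and root meristem, 10 for the rest. These counts were made at the deposited scaling only. With hypocotyl vascular tissue and 1 further library left out, an alternative chosen after seeing the data, the number was 203 to 238 and the median ratio of hypocotyl to young needle vascular value was 0.314 to 0.323. That median, 0.314, was 0.323 with a ratio of 3, 0.246 when reads were scaled by library totals and 0.238 with DESeq2 size factors, so its level depends on the scaling between libraries. For the same reason the number of members with a ratio of 0.25 to 0.5, 167, was 94 and 83 under these scalings, also added after seeing the data. The deposited normalisation factor was 1.53 for young needle and 1.20 for hypocotyl vascular tissue, and scaling by library totals leaves these factors out. Why the factors differ, and the cause of the other shifts, were not tested.

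For vascular against ground tissue, 0 transcripts were called by limma, against 39 with DESeq2 and 3 after quantile normalisation, and 0 to 2 with 1 library left out (2 without cotyledon mesophyll or without cotyledon vascular tissue). None of these were members under any alternative run. For root against shoot, 154 transcripts were called, against 232 with 1 added before the logarithm, 48 with 25 added, 48 with no filter, 254 with a filter at 25, 911 with DESeq2, 239 after quantile normalisation and 249 without the tissue group term. With 1 library left out the count was 43 (without developing root cortex) to 483 (without root vascular tissue, 326 higher and 157 lower in root), and 59, 82, 95 and 101 without cotyledon vascular tissue, cotyledon mesophyll, young needle mesophyll or root cortex. Members called were 0 throughout, except 1 with DESeq2. The cause was not tested. With 1 library a tissue and 1 to 3 reads behind many values outside the vascular pair, depth limits statements on single members there.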
